A study of Mus musculus with 16 samples.

Results

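The receptors for hematopoietic growth factors were followed as 8 genes across splenic dendritic cells (DCs) with and without Trim33. The genes were chosen by name, as the receptors for Flt3 ligand (Flt3), stem cell factor (Kit), GM-CSF (Csf2ra, Csf2rb), IL-3 (Il3ra, Csf2rb2), IL-7 (Il7r) and G-CSF (Csf3r). They are 8 of the 17128 genes listed for plasmacytoid DCs (pDCs) and of the 17721 listed for conventional DCs (cDCs), and all 8 were listed and tested in both tables. In RefSeq on GRCm38.p6 the genes span Csf3r (gene ID 12986) at chr4:126023441-126044975, Kit (gene ID 16590) at chr5:75574987-75656722, Flt3 (gene ID 14255) at chr5:147330741-147400489, Il3ra (gene ID 16188) at chr14:14345912-14355493. The others are Il7r (gene ID 16197) at chr15:9506159-9529941, Csf2rb2 (gene ID 12984) at chr15:78282507-78305721, Csf2rb (gene ID 12983) at chr15:78325800-78351001, Csf2ra (gene ID 12982) at chr19:61217191-61228461. RNA-seq was done on 16 libraries of cells sorted from the spleens of C57BL/6 mice aged 6 to 8 weeks. Control mice (WT) were Trim33 fl/fl, and knockout mice (cKO, labelled Trim33-/-) were Trim33 fl/fl Itgax-Cre, so both groups carried the floxed alleles. In cKO mice the Cre recombinase is driven by the promoter of Itgax, the gene of CD11c, which DCs and some other leukocytes use. The pDCs (CD11c+ SiglecH+) gave 3 libraries of each genotype, the cDC1s (CD11c+ SiglecH- MHC II+ CD24+ CD172a-) gave 2 of each and the cDC2s (CD11c+ SiglecH- MHC II+ CD24- CD172a+) gave 3 of each. Each library came from several pooled mice, more of them for cKO than for WT libraries, and p-values measure the spread between such libraries.

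Flt3 and Kit are receptor tyrosine kinases that are engaged by ligands made by stromal and other cells. Flt3 signalling drives the formation of all splenic DC subsets from bone marrow progenitors and keeps them in number, while Kit is best known on stem cells, early progenitors and mast cells. The GM-CSF and IL-3 receptors pair a ligand-specific alpha chain (Csf2ra or Il3ra) with a beta chain that carries the signal through the kinase Jak2. The mouse has a duplicated beta chain, since Csf2rb serves GM-CSF, IL-3 and IL-5, whereas its neighbour Csf2rb2 serves IL-3 alone. Il7r pairs with the common gamma chain Il2rg to bind IL-7, or with Crlf2 to bind TSLP, and is typical of lymphoid cells. Csf3r, the G-CSF receptor, is typical of neutrophils and their precursors.

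Values are TPM, the share of a library's transcripts that a gene takes, which is per length and so can be set side by side between genes. The tables for pDCs and cDCs were normalised separately, so levels are given side by side across them without a test. Sequencing depth was estimated at 18 to 20 M reads per library, and between 49 and 25287 reads lay behind each receptor value. Trim33, the targeted gene, was at 20.6 to 23.8 TPM in WT and 11.7 to 16.5 in cKO pDCs, at 15.5 to 18.2 and 7.71 to 7.88 in cDC1s, and at 17.2 to 20.6 and 7.13 to 8.07 in cDC2s. The decrease passed the test in cDC1s and cDC2s but not in pDCs (adjusted p = 0.0301 from limma), although no cKO library overlapped WT there. A gene-level value does not separate the deleted exons from the others. The sorted subsets carried their markers, with Siglech at 4367 to 5131 TPM in pDCs and at most 9.60 in cDCs. Xcr1 was at 202 to 307 TPM in cDC1s and at most 6.60 elsewhere. Sirpa was at 444 to 582 TPM in cDC2s against 3.75 to 7.43 in cDC1s, but at 288 to 304.5 TPM in pDCs. The 10 cDC2 markers summed to 3444 to 3721 TPM in WT pDCs and 2351 to 2596 TPM in WT cDC2s. That sum thus did not set cDC2s apart from pDCs. Parts of the marker lists differed by genotype, however. In cKO cDC1s 3 of 10 cDC1 markers fell, Itgae (log2 fold change -2.70), Cadm1 (-1.74) and Clec9a (-1.33), with Clec9a at 213 to 216 TPM there against 536 to 547 TPM in WT cDC1s and 171 to 231 TPM in pDCs. In cKO cDC2s 6 of 10 cDC2 markers were called, 3 higher and 3 lower. The mature DC program around Ccr7 was lower in cKO cDC1s. The summed level of its 16 genes was 4730 to 7063 TPM in WT and 750.5 to 943 TPM in cKO cDC1s, where 15 of the 16 were lower in cKO cells, and 3210 to 4285 against 1747 to 2318 TPM in cDC2s, where 4 were lower. In pDCs these sums overlapped (217 to 227 and 199 to 236 TPM). In bulk RNA, fewer cells of a type and less RNA per cell cannot be told apart.

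Csf2rb and Csf2rb2 lie side by side on chromosome 15 and are nearly alike in sequence, which bears on how far their values can be read as separate genes. In GENCODE transcripts on GRCm38 their coding sequences had 2503 of 2628 aligned bases in common (95.2%), with an identical run of 242 bases. Of all windows of 50 bases, the length of the reads, 18.4% in the longest Csf2rb transcript and 19.0% in the longest Csf2rb2 transcript occurred in the other gene too. Such reads had to be divided between the genes by the estimation program, so the level of each is less certain than their sum. The coding windows of 60 bases below, within 1 exon of each gene, show the stretch with the most differences (13, in capitals), with Csf2rb at chr15:78338893-78338952 on the plus strand (exon 5) and Csf2rb2 at chr15:78294379-78294438 on the minus strand (exon 4).
Csf2rb: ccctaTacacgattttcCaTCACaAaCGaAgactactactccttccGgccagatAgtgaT
Csf2rb2: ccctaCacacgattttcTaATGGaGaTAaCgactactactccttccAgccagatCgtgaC
A read from within this stretch tells the genes apart. The 60 coding bases that end at its first base, at chr15:78338834-78338893 in Csf2rb and at chr15:78294438-78294497 in Csf2rb2, were the same in both genes, and a read from within them could come from either.
Shared stretch: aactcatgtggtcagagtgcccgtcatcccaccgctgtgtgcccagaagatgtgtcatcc
No window of Flt3, Kit, Csf2ra or Il3ra occurred in another gene. The share was 0.89% for Il7r and 11.2% for Csf3r.

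Each DC subset had its own receptor profile. Flt3 was high in every library, from 216 to 464 TPM. pDCs were set apart by the IL-3 and IL-7 receptors, with Csf2rb2 at 479 to 643 TPM, Il7r at 133 to 188 TPM and Il3ra at 68.4 to 80.5 TPM, against at most 69.9, 19.8 and 41.3 TPM in cDCs. cDCs were set apart by Kit, at 104 to 257 TPM against 10.3 to 19.96 TPM in pDCs, and by Csf2ra, at 285 to 662 TPM against 101 to 139.8 TPM. Csf3r was highest in cDC2s, at 20.1 to 41.2 TPM, against 1.40 to 2.00 TPM in cDC1s and 3.03 to 5.31 TPM in pDCs.

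**Figure D1:**
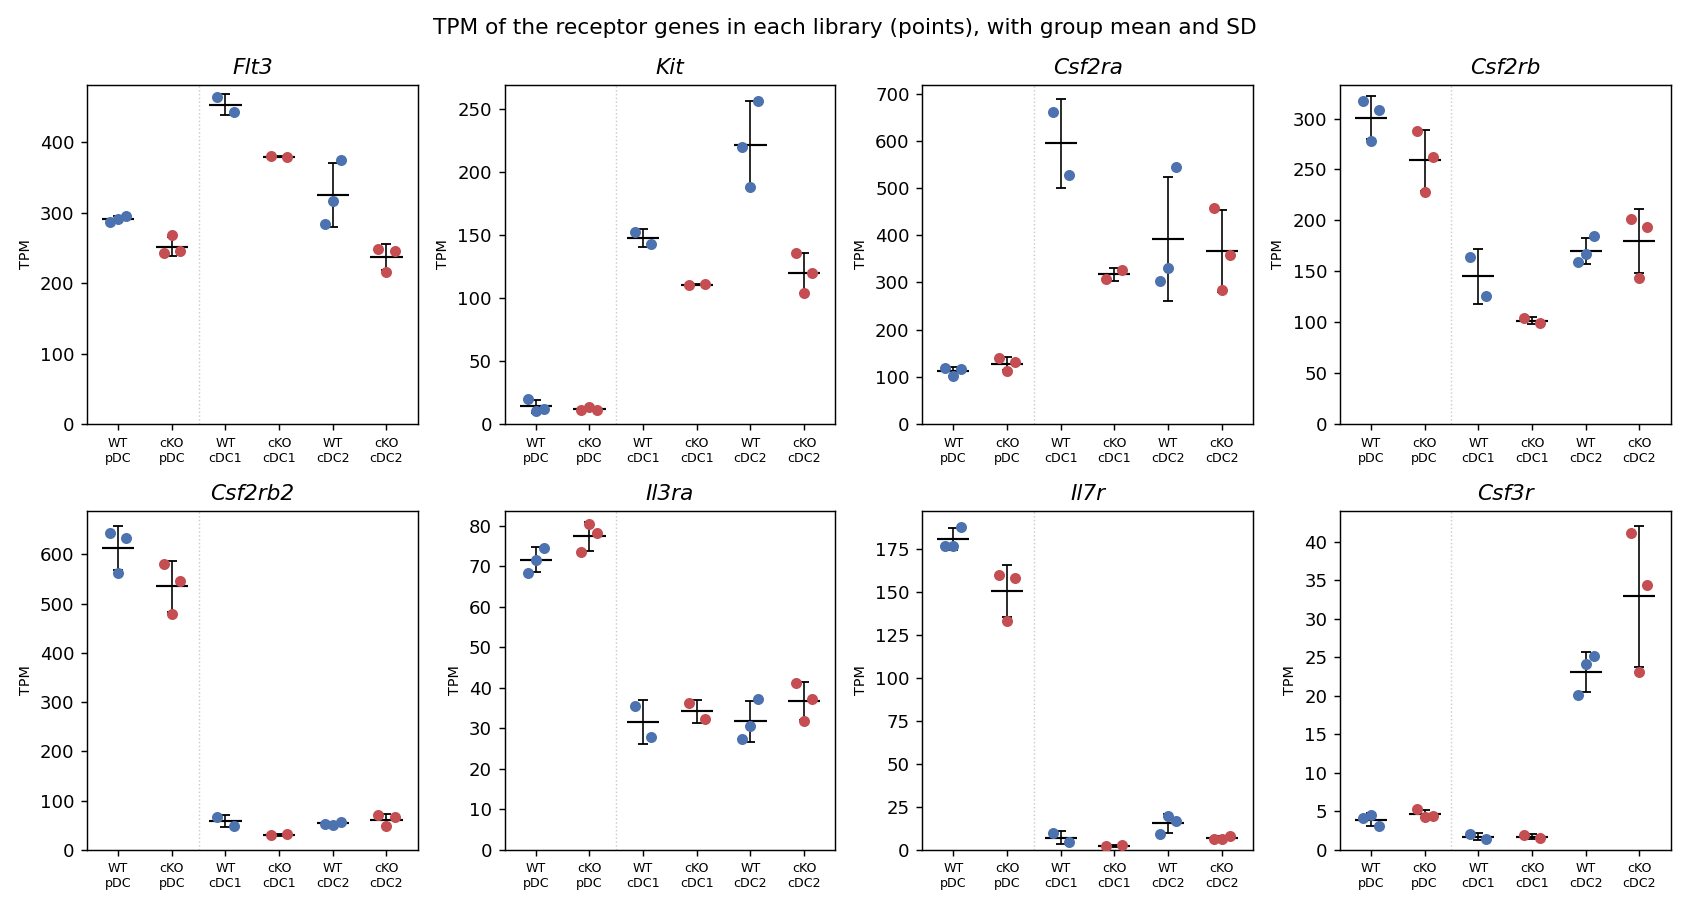
TPM of the 8 receptor genes in each library (points, blue WT and red cKO), with the group mean (line) and SD (bar), for pDCs to the left of the dotted line and cDCs, normalised separately, to its right. Kit and Csf2ra stand higher in cDCs, Csf2rb2, Il3ra and Il7r in pDCs, and Csf3r in cDC2s.

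Wild-type cDC1s and cDC2s were compared first, to place the receptors before Trim33 is lost. A gene was called when limma gave an adjusted p of at most 0.01 and a log2 fold change of TPM + 1 of at least 0.5 in either direction. By this rule 2 of the 8 receptors differed, where 31.7% of all 11411 genes tested did. Csf3r was 2.00 and 1.40 TPM in the WT cDC1 libraries and 20.1, 24.1 and 25.1 TPM in the WT cDC2 libraries, with no overlap. Its log2 difference, cDC1 minus cDC2, was -3.16 (SE 0.22, adjusted p = 1.16e-06 from limma). Kit was lower in cDC1s, at 153 and 143 TPM against 220.3, 188 and 257 TPM in cDC2s (log2 difference -0.57, SE 0.14, adjusted p = 0.00707 from limma). Flt3 was higher in cDC1s, at 464 and 442 TPM against 285, 317 and 374 TPM, also without overlap. Its adjusted p was 0.00664 from limma, but its log2 difference of 0.49 (SE 0.12) was just under the fold limit.

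The other receptors did not pass. Csf2ra was at 662 and 528 TPM in WT cDC1s and at 302, 330.2 and 544 TPM in WT cDC2s, where the third cDC2 library lay within the cDC1 range (log2 difference 0.64, SE 0.25, adjusted p = 0.0589 from limma). Il7r was at 9.68 and 4.33 TPM in cDC1s and at 9.43, 19.8 and 16.8 TPM in cDC2s (log2 difference -1.06, SE 0.33, adjusted p = 0.0227 from limma). Csf2rb, Csf2rb2 and Il3ra had log2 differences of -0.24, 0.10 and -0.00242, with adjusted p from limma of 0.239, 0.673 and 0.991. The median of all genes was -0.17 in this contrast. With libraries scaled by the median of ratios, 2 receptors were called higher in cDC1s, Flt3 (0.68) and Csf2ra (0.84), and 1 lower, Csf3r, while Kit (-0.38) was not called. The share of all genes called under that scaling is not given here, so this count shows only how stable the calls were. The Kit call was also lost without either cDC1 library of either genotype, cKO cDC2 library 3, or WT cDC2 library 1 or 3 (adjusted p = 0.0132 to 0.0507 from limma). Without WT cDC2 library 3, which had the highest Csf2ra and Flt3 of its group, Flt3 (0.59) and Csf2ra (0.90) were called.

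Flt3, the receptor on which DC formation depends, had lower values in cKO than in WT libraries of every subset, although no subset passed the test. In pDCs it was at 286, 291 and 295 TPM in WT and at 242, 268 and 245 TPM in cKO libraries. In cDC1s it was at 464 and 442 TPM in WT and 379.8 and 379 TPM in cKO libraries. In cDC2s it was at 285, 317 and 374 TPM in WT and 249, 216 and 246 TPM in cKO libraries. The groups did not overlap in any subset. The log2 fold changes were -0.21 (95% interval -0.34 to -0.08) in pDCs, -0.26 (-0.55 to 0.03) in cDC1s and -0.45 (-0.68 to -0.21) in cDC2s, with adjusted p from limma of 0.0891, 0.143 and 0.0161.

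Flt3 shared this lack of overlap in all 3 subsets with Il7r. They were 2 of the 8 receptors, where 3.27% of the 10619 genes tested in both tables had every cKO library below every WT library in all 3 subsets. Within single subsets 2 of 8 receptors were so placed in pDCs (16.7% of all genes tested), 6 of 8 in cDC1s (24.1%, with 2 libraries a group) and 3 of 8 in cDC2s (19.2%).

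Kit, the stem cell factor receptor, fell in cKO cDC2s and was the receptor that passed the test there. It was at 220.3, 188 and 257 TPM in WT and at 136, 104 and 119.9 TPM in cKO cDC2s, so the highest cKO library was below the lowest WT library. The log2 fold change was -0.88 (SE 0.13, adjusted p = 0.00155 from limma), or 0.543 of the WT level. Kit was thus 1 of 8 receptors called in cDC2s, where 7.15% of all genes were. In cDC1s Kit was at 153 and 143 TPM in WT and 110.4 and 111 TPM in cKO libraries, also apart, and its log2 fold change was -0.41 (SE 0.15, adjusted p = 0.0566 from limma). The effects in cDC1s and cDC2s were not shown to differ, their difference being 0.47 (SE 0.20, adjusted p = 0.147 from limma).

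In pDCs, where Kit was low, it was at 19.96, 10.3 and 12.1 TPM in WT and 11.4, 13.8 and 11.5 TPM in cKO libraries, and the groups overlapped. The log2 fold change of -0.15 (95% interval -0.65 to 0.35) became 0.11 without WT library 1. In cKO cells the ranges of Kit in the cDC subsets overlapped, at a mean of 111 ± 0.42 TPM (SD, n = 2) in cDC1s and 119.9 ± 15.8 TPM (SD, n = 3) in cDC2s. The cKO subsets were not tested against each other.

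Markers of other cells that use Kit differed in level by list and subset. Of 8 mast cell and basophil genes, Hdc alone was tested in cDCs, at 5.30 to 7.29 TPM in WT and 2.26 to 2.89 TPM in cKO cDC2s, and it was lower in cKO (log2 fold change -0.98, adjusted p = 0.00260 from limma). Fcer1a, Ms4a2, Cpa3, Tpsb2 and Gata2 stayed under 1 TPM in every cDC library, and the 8 genes summed to 7.06 to 13.9 TPM in WT and 2.99 to 3.99 TPM in cKO cDC2s. Of 11 progenitor genes 4 were tested in cDC2s and none was called by limma (1 had an unadjusted p under 0.05, and 1 was called higher with median-of-ratios scaling), with sums of 19.0 to 23.8 TPM in WT and 20.4 to 24.3 TPM in cKO. The part of such cells in the Kit values was not tested.

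**Figure D2:**
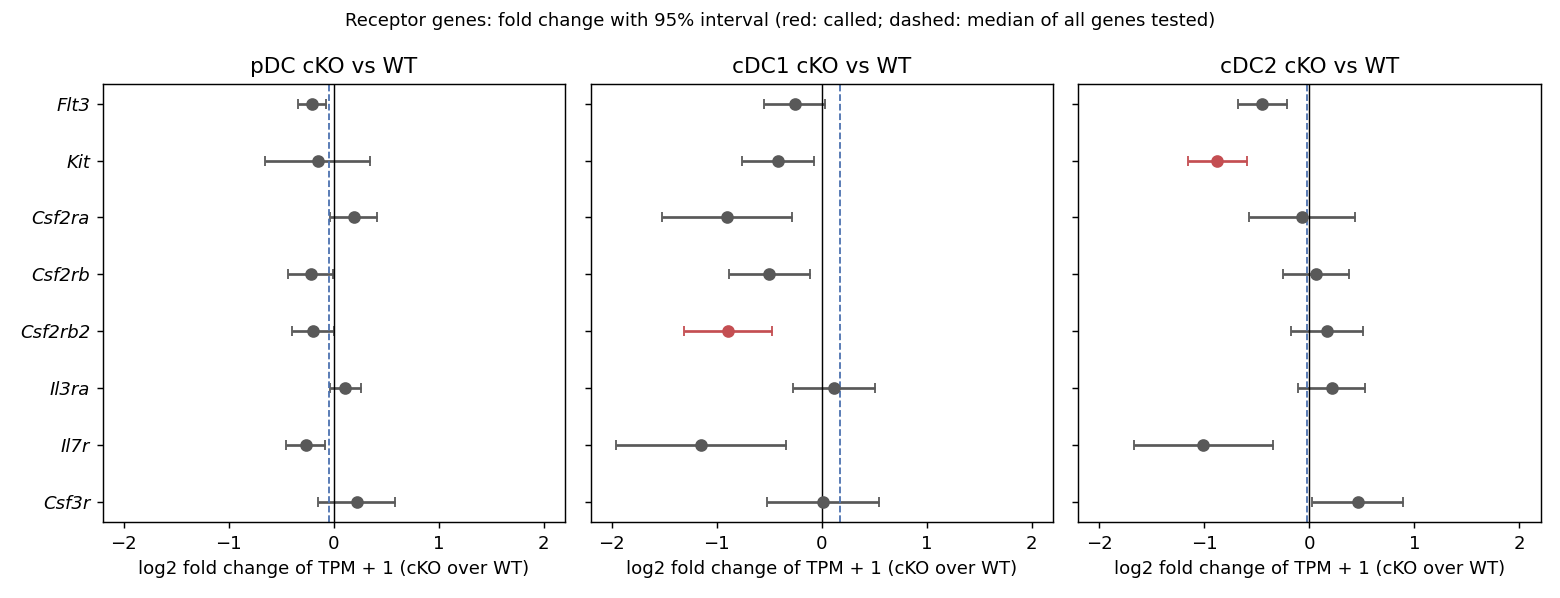
Log2 fold change of TPM + 1 (x axis, cKO over WT) of the 8 receptor genes in each subset, with 95% intervals (bars). Red points were called, and the dashed line is the median of all genes tested. Kit was called in cDC2s and Csf2rb2 in cDC1s, and in pDCs no interval reached beyond -0.65 or 0.58.

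Of the chains of the GM-CSF and IL-3 receptors, Csf2ra, Csf2rb and Csf2rb2 had lower values in cKO than in WT cDC1s, and Csf2rb2 passed the test. Csf2rb2, the IL-3 beta chain, was at 66.5 and 49.3 TPM in WT and 29.1 and 31.6 TPM in cKO cDC1s. Its log2 fold change was -0.90 (SE 0.19, adjusted p = 0.00441 from limma), or 0.538 of the WT level. It was 1 of 8 receptors called in cDC1s, a share below the 22.4% of all genes. The call was lost in 3 of the fits that left out 1 cDC1 library (adjusted p = 0.0405 and 0.0214 without cKO library 1 or 2, and 0.0406 without WT library 1).

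Csf2ra, the GM-CSF alpha chain, was at 662 and 528 TPM in WT and 307 and 327 TPM in cKO cDC1s (log2 fold change -0.90, SE 0.28, adjusted p = 0.0269 from limma). Csf2rb, the shared beta chain, was at 164 and 126 TPM in WT and 104 and 99.2 TPM in cKO cDC1s (log2 fold change -0.50, SE 0.17, adjusted p = 0.0439 from limma). Neither chain overlapped between genotypes, and neither was called. WT library 1, with the higher sum of mature DC genes, was the higher of the WT libraries for all 3 chains, as for the other receptors. The part of that program, or of the lower cDC1 markers Itgae, Cadm1 and Clec9a, in the values of the chains was not tested. The median of all genes tested was 0.17 higher in cKO cDC1s. Relative to that median the changes were -1.07 for Csf2rb2, -1.07 for Csf2ra, -0.67 for Csf2rb and -0.59 for Kit. All 4 were called lower under median-of-ratios scaling, which brings the median to 0.02. The share of all genes called under that scaling is not given here.

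In cDC2s the same chains overlapped between genotypes. Csf2rb2 was at 53.3, 51.4 and 56.0 TPM in WT and 69.9, 47.4 and 66.2 TPM in cKO libraries, and the groups overlapped (log2 fold change 0.17, 95% interval -0.17 to 0.51, adjusted p = 0.470 from limma). Csf2rb had a log2 fold change of 0.06 (-0.25 to 0.38), from WT values of 159, 167 and 184 TPM and cKO values of 201, 144 and 194 TPM. Csf2ra had one of -0.07 (-0.58 to 0.43), from 302, 330.2 and 544 TPM in WT and 458, 285 and 358 TPM in cKO libraries.

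Whether the genotype effect differed between cDC1s and cDC2s was tested directly. None of the 8 receptors was called in this contrast by limma, where 2.56% of all genes were. An unadjusted p under 0.05 was found for 4, and the share of all genes at that limit is not given here. Csf2rb2 came closest, with a cDC1 effect minus cDC2 effect of -1.06 (SE 0.24, adjusted p = 0.0243 from limma). It was called under median-of-ratios scaling (-1.28, adjusted p = 0.00570) and under quantile normalization (-1.22, adjusted p = 0.00939), and without cKO cDC2 library 2 (-1.24, adjusted p = 0.00767).

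In pDCs no receptor was called by limma (0 of 8, where 1.05% of all genes were). An unadjusted p under 0.05 was found for 3, and the share of all genes at that limit is not given here. Csf2rb2 was at 643, 562 and 634 TPM in WT and 580.2, 479 and 547 TPM in cKO libraries, with a log2 fold change of -0.20 (95% interval -0.40 to 0.00171). Csf2rb was at 317, 278 and 308 TPM in WT and 287, 227 and 262 TPM in cKO libraries (-0.22, -0.44 to -0.00425). Csf2ra was at 118, 101 and 117 TPM in WT and 139.8, 113 and 132 TPM in cKO libraries (0.19, -0.03 to 0.41). Each of the 3 overlapped between genotypes as a group, but libraries of the same number deviated together in pDCs. Within each of the 3 same-numbered sets, Csf2rb and Csf2rb2 were lower and Csf2ra was higher in the cKO library. The main test did not pair libraries, and the labels do not say what the numbers mark. With the replicate block the adjusted p from limma were 0.0318 for Csf2rb, 0.0394 for Csf2rb2 and 0.0467 for Csf2ra, as well as 0.0318 for Il7r and 0.0404 for Flt3, still above the limit of 0.01, while 335 genes in all were called in place of 119.

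The ratios of chains within a library do not depend on how the tables were scaled. Csf2rb2 over Csf2rb was 2.03 to 2.06 in WT and 2.02 to 2.11 in cKO pDCs, while in cDCs it was 0.391 and 0.406 in WT cDC1s, 0.280 and 0.319 in cKO cDC1s, 0.303 to 0.336 in WT cDC2s and 0.330 to 0.347 in cKO cDC2s. The IL-3 beta chain thus stood above the shared one in every pDC library and below it in every cDC library. The ratio was lower in both cKO cDC1 libraries than in both WT ones. Both genes together came to 707 to 960.4 TPM in pDCs and 131 to 271 TPM in cDCs.

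Csf2ra over Csf2rb, the GM-CSF alpha chain against its beta chain, was 0.365 to 0.380 in WT and 0.486 to 0.504 in cKO pDCs. These ranges lay apart although neither gene's own values did. The ratio was 4.03 and 4.196 in WT and 2.96 and 3.30 in cKO cDC1s, and it overlapped in cDC2s (1.90 to 2.95 in WT and 1.85 to 2.28 in cKO). These ratios were chosen after their values were seen and are given without a test.

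**Figure D3:**
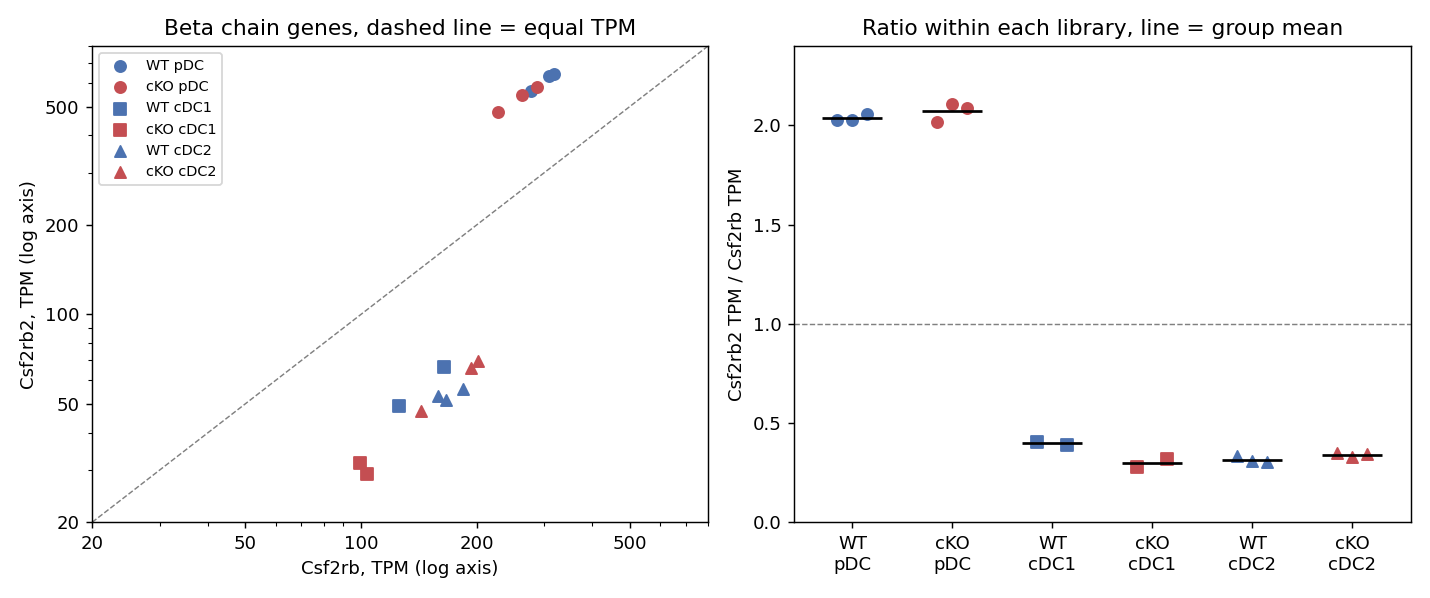
Left, Csf2rb2 against Csf2rb in each library (both in TPM on log axes, blue WT and red cKO, circles pDCs, squares cDC1s, triangles cDC2s). Right, the ratio of the genes in each library with the group mean (line). The pDC libraries lie above the line of equal TPM with ratios of 2.02 to 2.11, and the cDC libraries lie below it with ratios of 0.280 to 0.406.

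Il3ra, the IL-3 alpha chain, was not called in any subset. It was at 68.4, 71.6 and 74.6 TPM in WT and 73.5, 80.5 and 78.1 TPM in cKO pDCs (log2 fold change 0.11, 95% interval -0.04 to 0.26). It was at 35.4 and 27.8 TPM in WT and 36.1 and 32.2 TPM in cKO cDC1s (0.12, -0.28 to 0.51), a sign that turned with median-of-ratios scaling (-0.05) and with quantiles equalised (-0.07). In cDC2s it was at 27.3, 30.6 and 37.2 TPM in WT and 41.3, 31.8 and 37.2 TPM in cKO libraries (0.21, -0.11 to 0.53). The groups overlapped in every subset, and the adjusted p from limma were 0.362, 0.632 and 0.330.

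Il7r, the IL-7 receptor alpha chain, had lower values in cKO than in WT libraries of every subset without being called in any. In pDCs it was at 177, 177 and 188 TPM in WT and 160.1, 133 and 158 TPM in cKO libraries (log2 fold change -0.27, 95% interval -0.45 to -0.08, adjusted p = 0.115 from limma). In cDC1s, where 68 to 343 reads lay behind a value, it was at 9.68 and 4.33 TPM in WT and 1.99 and 2.88 TPM in cKO libraries (-1.15, -1.95 to -0.34, adjusted p = 0.0293 from limma). In cDC2s it was at 9.43, 19.8 and 16.8 TPM in WT and 6.01, 6.48 and 8.03 TPM in cKO libraries (-1.01, -1.67 to -0.35, adjusted p = 0.0384 from limma). The groups did not overlap, and on this scale the changes of the low cDC values are understated. In cDC1s the change became -1.65 (adjusted p = 0.00943 from limma) without WT library 2 and -0.65 (adjusted p = 0.220) without WT library 1.

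Every receptor was higher in WT cDC1 library 1 than in library 2, so the order of these libraries does not single out Il7r. WT library 1 had both the higher Il7r level (9.68 TPM) and the higher sum of mature DC genes (7063 TPM), against 4.33 and 4730 TPM in WT library 2. In WT cDC2s the highest Il7r value (19.8 TPM) and the highest sum (4285 TPM) were both in library 2, while the lowest Il7r value (9.43 TPM) was in library 1 and the lowest sum (3210 TPM) in library 3. Of 10 T cell and innate lymphoid genes the sum was 103 to 116 TPM in WT and 51.9 to 54.7 TPM in cKO cDC2s, and 14.96 to 21.9 and 12.6 to 15.6 TPM in cDC1s. Tcf7 carried much of the cDC2 sum, at 71.0 to 87.3 TPM in WT and 24.05 to 25.75 TPM in cKO (log2 fold change -1.60). Cd5 overlapped there, at 19.4 to 27.0 and 19.6 to 23.0 TPM. Cd3d, Cd3e and Cd3g were at most 1.92 TPM in any library. In pDCs the sum of the 10 genes went the other way, from 16.2 to 22.4 TPM in WT to 46.7 to 67.7 TPM in cKO. A single gene, Thy1, carried much of it there, at 7.43 to 12.3 TPM in WT and 28.4 to 47.0 TPM in cKO. B cell genes (7) summed to 24.0 to 32.5 TPM in WT and 17.2 to 17.8 TPM in cKO cDC1s, where Ms4a1 fell (-1.48) and Cd79b had a log2 fold change of 1.09 (adjusted p = 0.0110 from limma). The part of these programs in the Il7r values was not tested.

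Csf3r, the G-CSF receptor, was not called in any subset. In cDC2s, where it was highest, it was at 20.1, 24.1 and 25.1 TPM in WT and 41.2, 23.1 and 34.4 TPM in cKO libraries, which overlapped (log2 fold change 0.46, 95% interval 0.03 to 0.90, adjusted p = 0.126 from limma). In pDCs it was at 4.16, 4.57 and 3.03 TPM in WT and 5.31, 4.32 and 4.42 TPM in cKO libraries (0.22, -0.14 to 0.58), and in cDC1s at 2.00 and 1.40 against 1.92 and 1.52 TPM (0.02, -0.52 to 0.55). The sign in cDC1s turned with FPKM (-0.02) and median-of-ratios scaling (-0.09). Neutrophil genes (10) summed to 12.9 to 34.3 TPM in WT and 34.8 to 142.6 TPM in cKO pDCs. In cDC1s they summed to 4.92 to 21.4 TPM in WT and 26.6 to 46.9 TPM in cKO, so both subsets had higher sums in cKO. None of the list was called in either by limma (3 in pDCs and 1 in cDC1s had an unadjusted p under 0.05). In cDC2s the sums overlapped, at 25.99 to 69.7 TPM in WT and 38.4 to 99.3 TPM in cKO. In WT cDC2s the highest sum (69.7 TPM) and the highest Csf3r (25.1 TPM) were both in library 3, and in cKO cDC2s the highest sum (99.3 TPM) was in library 2, which had the lowest Csf3r (23.1 TPM). Of the list 7 genes were tested in cDC2s, with a median log2 fold change of 0.65 and none called by limma (1 had an unadjusted p under 0.05). Ly6g and Mmp8 were under 1 TPM in every cDC library. The part of neutrophils in the Csf3r values was not tested.

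Of 12 ligands of these and related receptors, Flt3l and Csf1 (2 of 12) reached a mean of 1 TPM in each table. Neither was called between genotypes by limma in any subset, with unadjusted p under 0.05 for both in cDC1s alone. Flt3l, the ligand of Flt3, was at 9.55 to 10.2 TPM in WT cDC1s and 28.3 to 43.1 TPM in WT cDC2s (log2 difference -1.69, adjusted p = 2.02e-05 from limma), the reverse of the order of Flt3. In pDCs it was at 17.6 to 22.0 TPM in the 6 libraries.

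Of 19 related cytokine and growth factor receptors 12 were tested in each fit. In pDCs none was called by limma (3 had an unadjusted p under 0.05), in cDC1s 1 rose and 3 fell, and in cDC2s 1 rose and 1 fell, against 22.4% and 7.15% of all genes called. The gene that rose in both cDC subsets was Csf1r, the M-CSF receptor, a tyrosine kinase of the same class as Flt3 and Kit. It was at 10.2 and 13.8 TPM in WT and 22.4 and 22.0 TPM in cKO cDC1s (log2 fold change 0.85, SE 0.19, adjusted p = 0.00636 from limma), and the call was lost under median-of-ratios scaling (0.68), with 0 higher and 4 lower related receptors there. In cDC2s it went from 154 to 161 TPM in WT to 232 to 346 TPM in cKO (0.94, SE 0.16, adjusted p = 0.00326 from limma). In pDCs it went from 11.6 to 15.98 TPM in WT to 20 to 29.3 TPM in cKO without passing (0.80, SE 0.16, adjusted p = 0.0336 from limma).

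Kit and Csf1r stood in a different proportion in cKO and WT cDCs. Kit over Csf1r within a library was 1.22 to 1.60 in WT and 0.346 to 0.449 in cKO cDC2s, and 10.4 and 14.9 in WT against 4.94 and 5.05 in cKO cDC1s. In pDCs the ratio overlapped, at 0.647 to 1.52 in WT and 0.389 to 0.689 in cKO. Flt3 over Csf1r was 1.83 to 2.32 in WT and 0.710 to 0.934 in cKO cDC2s, so that Csf1r was above Flt3 in cKO cDC2s alone. Monocyte and macrophage genes (12) had sums of 1230 to 1777 TPM in WT and 2491 to 3210 TPM in cKO cDC2s, 4999 to 5662 and 5821 to 6003 TPM in pDCs, and overlapping sums in cDC1s (423 to 686 and 464 to 492 TPM). Single genes carried these sums, Lyz2 in cDC2s (617 to 1048 TPM in WT and 1945 to 2449 TPM in cKO) and Ly6c2 in pDCs (4771 to 5456 and 5574 to 5702 TPM). Of 11 genes tested in cDC2s Ccr2, Fcgr1 and Lyz2 rose and none fell, with a median log2 fold change of 0.13 over the 11. In cDC1s Ccr2 (2.10) and Ly6c2 (1.40) rose and Vcam1 (-1.92) fell, with a median of -0.51. In pDCs none of 10 was called by limma (6 had an unadjusted p under 0.05). Their part in the Csf1r values was not tested.

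The 3 related receptors that fell in cKO cDC1s were Il21r, Il15ra and Il4ra. Il21r, which signals with the common gamma chain, was at 57.7 and 30.4 TPM in WT and 4.36 and 6.01 TPM in cKO cDC1s (log2 fold change -2.81, SE 0.25, adjusted p = 5.89e-05 from limma), the largest decrease of the list. Il15ra, which presents IL-15 to other cells, had a log2 fold change of -1.93 (SE 0.29), and Il4ra, the IL-4 receptor alpha chain, one of -1.34 (SE 0.19). WT library 1, with the higher sum of mature DC genes, had the higher Il21r value of the WT cDC1 libraries, and the part of that program was not tested. In cDC2s Il9r, the IL-9 receptor, fell from 2.36 to 4.22 TPM in WT to 0.95 to 1.34 TPM in cKO (-1.03, SE 0.19, adjusted p = 0.00498 from limma). The common gamma chain Il2rg, the partner of Il7r, was at 453 to 518 TPM in pDCs, 74.0 to 106 TPM in cDC1s and 569 to 667 TPM in cDC2s, was lower in WT cDC1s than in WT cDC2s (log2 difference -2.68), and was not called between genotypes.

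**Figure D4:**
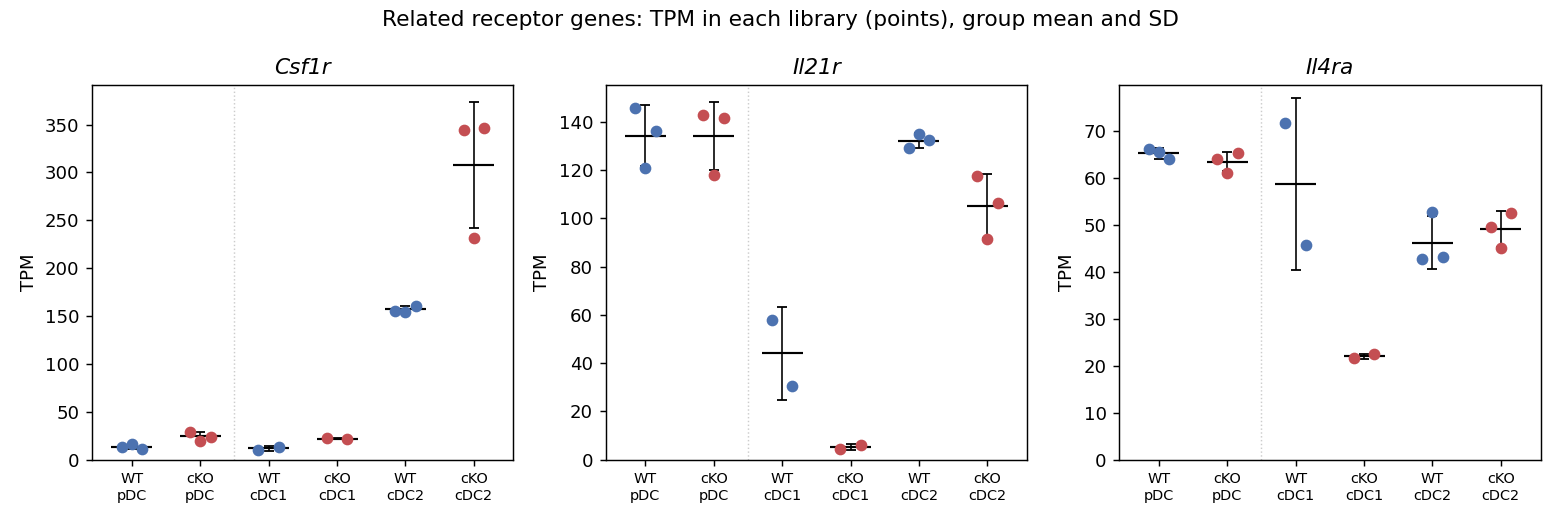
TPM of Csf1r, Il21r and Il4ra in each library (points, blue WT and red cKO) with the group mean and SD, pDCs to the left of the dotted line. Csf1r stands higher in cKO than in WT libraries of each subset, at 232 to 346 against 154 to 161 TPM in cDC2s, and Il21r and Il4ra are lower in cKO cDC1s.

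Of 24 genes for proteins that carry the signal inward, none was called in pDCs (7 had an unadjusted p under 0.05 from limma), and 2 each were called in cDC1s and cDC2s, beside 1.05%, 22.4% and 7.15% of all genes. In cDC1s these were 1 higher and 1 lower, or 1 and 3 with median-of-ratios scaling. Jak2, the kinase bound to the GM-CSF and IL-3 beta chains, fell in cDC2s from 362 to 402 TPM in WT to 249.8 to 253 TPM in cKO (log2 fold change -0.61, SE 0.08, adjusted p = 0.000738 from limma). In cDC1s it went from 213 and 231 to 168 and 159 TPM, with an adjusted p of 0.00442 from limma but a log2 fold change of -0.44, and it was called under median-of-ratios scaling (-0.61). Pik3cb, a catalytic subunit of PI3 kinase, fell in cDC2s (-0.57, SE 0.10), and Pik3r1, a regulatory subunit, fell in cDC1s (-0.79, SE 0.13). Without being called, Pik3cb was also lower in cKO cDC1s (121.9 to 140.6 TPM in WT, 96.0 to 97.0 in cKO). In pDCs it was at 23.6 to 25.9 and 19.3 to 20.9 TPM. Pik3r1 was at 34.2 to 39.1 and 25.1 to 32.2 TPM in cDC2s, not called, and overlapped in pDCs. Ptpn11, the phosphatase SHP2, rose in cDC1s (0.70, SE 0.15).

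Negative regulators were called about as often as all genes in cDCs, 3 of 15 in cDC1s (22.4% of all genes) and 1 of 15 in cDC2s (7.15%). In cDC1s Cblb, a ubiquitin ligase, fell (log2 fold change -1.26, SE 0.16), Socs2, a feedback inhibitor of JAK signalling, fell (-2.93, SE 0.55), and Spred2, an inhibitor of Ras signalling, rose (0.98, SE 0.23), the last not under median-of-ratios scaling (0.82), where 0 were higher and 4 lower. In cDC2s Cblb fell (-0.66, SE 0.13). In pDCs 1 of 16 was called (1.05% of all genes), Spred1, which rose from 4.77 to 5.45 TPM in WT to 11.2 to 11.96 TPM in cKO (1.01, SE 0.10, adjusted p = 0.00258 from limma).

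Genes known to respond to STAT5, the factor these cytokine receptors activate, were called in 4 of 11 cases in cDC1s, 0 of 11 in cDC2s by limma (4 had an unadjusted p under 0.05) and 1 of 12 in pDCs, beside 22.4%, 7.15% and 1.05% of all genes. In cDC1s Myc rose from 23.0 and 16.3 TPM to 90.4 and 80.9 TPM (log2 fold change 2.09, SE 0.25, adjusted p = 0.000242 from limma), and Ccnd2, a G1 cyclin, rose (1.10, SE 0.23). Socs2, which is on this list too, and Bcl2l1, which encodes the survival protein BCL-XL (-0.82, SE 0.20), fell. In cDC2s, where neither was called, Socs2 was at 24.8 to 74.8 TPM in WT and 11.5 to 22.1 TPM in cKO. Bcl2l1 was at 10.2 to 16.85 and 7.93 to 8.31 TPM there, while Myc and Ccnd2 overlapped between genotypes. As in cDC1s, Ccnd2 rose in pDCs, from 7.81 to 8.76 TPM in WT to 22.0 to 30.6 TPM in cKO (1.54, SE 0.12, adjusted p = 0.00157 from limma). With median-of-ratios scaling 1 gene of the list rose and 1 fell in pDCs. Members of the list thus went both ways. In cDC1s the list medians were -0.22 for negative regulators, -0.38 for STAT5 response genes, -0.15 for related receptors and -0.46 for the 8 receptors. They were -0.18 for the 2 ligands tested and 0.05 for the 24 signalling genes, beside 0.17 for all genes. The 8 receptors had medians of -0.00372 in cDC2s and -0.17 in pDCs, beside -0.03 and -0.05 for all genes.

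More genes of these lists were called between the WT cDC subsets. There 8 of 12 related receptors, 11 of 24 signalling genes, 7 of 15 negative regulators and 5 of 11 STAT5 response genes were called, beside the 31.7% of all genes. Csf1r was lower in cDC1s than in cDC2s (log2 difference -3.62) and so was Il21r (-1.63), while Il15ra was higher (1.68). Among signalling genes Syk (-1.61), Jak3 (-1.52) and Pik3cg (-1.03) were lower and Tyk2 (0.97) was higher in cDC1s. Among negative regulators the phosphatase genes Ptpn6 (-1.82) and Ptprc (-1.67) and Socs3 (-1.21) were lower and Cblb (0.93) was higher, and among STAT5 response genes Ccnd2 (-3.08), Osm (-1.85) and Pim3 (-1.23) were lower. Socs3 was not called under median-of-ratios scaling (-1.04), where 2 negative regulators were higher and 2 lower in place of 2 and 5, and 3 signalling genes were higher and 7 lower in place of 2 and 9.

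Genes whose levels ran most like each receptor over the 10 cDC libraries were found by Pearson r of log2(TPM + 1). These r values describe libraries that share subset, genotype and depth. For Flt3 they were Rfk (r = 0.992) and St3gal3 (0.980), and for Kit Efcab14 (0.970) and F830016B08Rik (0.969). For Csf2ra they were Pnpla2 (0.962) and Chkb (0.956), for Csf2rb Ghdc (0.980), and for Csf2rb2 Atp6v0a1 (0.955) and Snx8 (0.952). For Il3ra they were N4bp1 (0.949) and Edem1 (0.931), for Il7r Mif4gd (0.985) and Castor2 (0.981), and for Csf3r 6430548M08Rik (0.997) and Naip2 (0.996). No receptor was among the nearest genes of another.

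Over the 6 pDC libraries, where high r values are easily reached among 11299 genes, the nearest to Flt3 were Pik3cd (r = 0.995), the PI3 kinase subunit of leukocytes, and Fchsd1 (0.991). For Kit they were Gstm1 (0.990) and Gm39701 (0.984), for Csf2ra Mt2 (0.991) and Snx1 (0.990), for Csf2rb Hoxa5 (0.998) and Rnaseh1 (0.996), and for Csf2rb2 Gm33989 (0.998) and Klhl8 (0.997). For Il3ra they were Trim34b (0.994) and Impdh2 (0.994), for Il7r Nt5dc1 (0.999) and Ech1 (0.994), and for Csf3r 2310022A10Rik (0.993) and Uqcrb (0.991). No gene was among the nearest of a receptor in both tables.

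The promoters of the called receptors Kit and Csf2rb2, and that of Il7r, are shown as the 250 bases before the annotated start (RefSeq, GRCm38.p6), Il7r having the lowest log2 fold changes of the 8 receptors in both cDC subsets. Kit is at chr5:75574737-75574986 on the plus strand, Csf2rb2 at chr15:78305722-78305971 and Il7r at chr15:9529877-9530126 on the minus strand. Capitals mark GGAAGT, a core bound by ETS factors, on either strand.
Kit: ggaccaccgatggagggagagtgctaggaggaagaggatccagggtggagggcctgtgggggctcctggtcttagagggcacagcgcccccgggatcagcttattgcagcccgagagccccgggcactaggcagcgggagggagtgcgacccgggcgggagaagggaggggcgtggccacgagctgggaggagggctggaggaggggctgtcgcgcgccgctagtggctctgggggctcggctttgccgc
Csf2rb2: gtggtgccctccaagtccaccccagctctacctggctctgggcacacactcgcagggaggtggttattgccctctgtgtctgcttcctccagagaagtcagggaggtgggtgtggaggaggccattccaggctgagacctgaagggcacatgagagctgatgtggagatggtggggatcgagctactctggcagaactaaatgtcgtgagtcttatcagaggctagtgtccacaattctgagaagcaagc
Il7r: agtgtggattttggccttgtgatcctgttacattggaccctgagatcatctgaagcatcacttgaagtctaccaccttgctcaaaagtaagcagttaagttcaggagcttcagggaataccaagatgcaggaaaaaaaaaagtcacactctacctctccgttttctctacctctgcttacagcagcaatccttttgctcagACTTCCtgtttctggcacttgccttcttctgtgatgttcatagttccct
GGAAGT was found once in the windows of Il7r, Flt3 and Il3ra, beginning 49, 75 and 139 bases before the start, and not in those of Kit, Csf2ra, Csf2rb2 and Csf3r. Of 32851 promoter windows of the same length 19.7% held it. The longer PU.1 form GAGGAAGT, which contains GGAAGT, was in none of these 7 windows and in 2.44% of all. The STAT motif TTCNNNGAA, searched on both strands, was found in Csf2rb2 (15 bases before the start) and Il7r (142 bases) and in 7.02% of all windows. The RUNX motif TGTGGT was in none of the 7 and in 14.1% of all. The Kit window was the richest in G and C of the 3 shown (70.8%, against 56.4% for Csf2rb2 and 44.0% for Il7r). Matches of letters are not binding sites, and these data hold no measure of binding.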

How the data were processed

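The authors filtered single-end reads of 50 bases with SOAPnuke, and their processing notes name HISAT2 2.0.4, Bowtie2 2.2.5 and RSEM 1.2.12 with the mouse build mm10. The deposited TPM values per gene fill 2 tables, 1 of 6 pDC and 1 of 10 cDC libraries, and the authors gave FPKM alongside. Which transcript release they used is not given in the sources used here. NCBI gene IDs were matched to RefSeq GRCm38.p6 (17079 of 17128 IDs for pDCs and 17667 of 17721 for cDCs), and groups were taken from sample titles.

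The test took genes whose TPM averaged 1 or more (11299 in pDCs, 11411 in cDCs) with limma 3.58.1 in R 4.3.3 (lmFit, eBayes with trend) on log2(TPM + 1), a pseudocount that understates changes of low genes. Values are not counts, so limma replaced the count model the authors used, with their thresholds. The cDC fit held 4 group means. Each test was two-sided, p-values were adjusted by Benjamini-Hochberg across every gene tested, and called means an adjusted p of at most 0.01 and a log2 fold change of at least 0.5 in size. Counts of genes with an unadjusted p under 0.05 have no share of all genes at that limit beside them, so they show no excess. The same holds for counts of genes called under median-of-ratios scaling or quantile normalization. The 8 receptors, the gene lists and the tests were chosen with earlier results of these data known. Named from the lists were called genes, at most the 4 largest per list and contrast, the 2 genes most like each receptor, marker genes, and genes chosen after their values were seen (Jak2 in cDC1s, Csf1r in pDCs, Il2rg between genotypes). Values of Il9r, Pik3cb, Pik3r1, Socs2, Bcl2l1, Myc and Ccnd2 in subsets where they were not called were also chosen after being seen.

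Replicate numbers were checked for pairing. In pDCs same-numbered WT and cKO libraries deviated together from their group means (r = 0.310, 0.392 and 0.206 across genes). The labels do not say what the numbers mark. The main pDC test was not paired, and a fit with the replicate block is given beside it. In cDC2s they did not (r = -0.249, 0.253 and -0.165), while WT library 3 and cKO library 1 reached r = 0.468. Such r values therefore do not establish pairs. In cDC1s, with 2 libraries a group, all r values are equal apart from sign (0.233), so they cannot show pairing. Depth was estimated from the step between low FPKM values of genes with 1 transcript, which is what 1 read is worth, and covers counting error only. The windows of 50 bases came from GENCODE vM21 transcripts. The fits and the depth estimate were tested on simulated data. Python 3.11.15, numpy 2.4.6, pandas 2.3.3, matplotlib 3.10.9 and Biopython 1.88 were used. The Csf2rb promoter was not analysed here. One gene that the naming rule selects is not reported here.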

Additional observations from a re-analysis of the deposited data

Results flagged for a closer look

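The related receptors Il21r and Il4ra differed in their genotype effect between cDC1s and cDC2s by the test of the difference itself (adjusted p from limma). For Il21r the cDC1 effect minus the cDC2 effect was -2.47 on the log2 scale (SE 0.32, adjusted p = 0.00200), with levels of 30.4 and 57.7 TPM in WT and 4.36 and 6.01 TPM in cKO cDC1s, and of 129 to 135 TPM in WT and 91.3 to 118 TPM in cKO cDC2s. For Il4ra it was -1.43 (SE 0.24, adjusted p = 0.00733), with 45.8 and 71.8 TPM in WT and 21.7 and 22.5 TPM in cKO cDC1s, and overlapping cDC2 levels of 42.8 to 52.8 TPM in WT and 45.2 to 52.7 TPM in cKO. WT cDC1 library 1 had the higher level of both genes and the higher sum of mature DC genes, whose part in these values was not tested.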

How the results depend on the processing

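Each count of receptors called was recomputed under 10 settings and without each library in turn. The share of all genes called under each setting is not set beside these counts. They therefore tell only how stable the calls were. In pDCs it stayed at 0 of 8 in every fit, the replicate block included, and at 0 without any 1 library. In cDC1s, where 1 was called, it was 0 with no filter on low values (Csf2rb2 then had an adjusted p of 0.0108), 4 with median-of-ratios scaling, 2 with quantile normalization, 4 at an adjusted p limit of 0.05 without a fold limit, and 0 to 2 without 1 library. In cDC2s it stayed at 1 except for 3 at the looser threshold, and was 1 to 1 without 1 library. For the difference between cDC1 and cDC2 effects it was 1 in place of 0 with median-of-ratios scaling, with quantile normalization and at the looser threshold, and 0 to 1 without 1 library. For WT cDC1s against WT cDC2s, where 2 were called, it was 1 with no filter and 1 with eBayes without a trend (Kit lost in both), 4 at the looser threshold, and 1 to 3 without 1 library. Between the WT subsets Kit was also not called with median-of-ratios scaling (2 receptors higher and 1 lower) or with quantile normalization (1 higher and 1 lower). Fold changes that changed sign were 0.19 or less in size in the main fits, but some were larger without 1 library. With FPKM these were Csf3r in cDC1s (-0.020) and Il3ra between WT cDC subsets (0.061), the latter also with the replicate block (0.063). With median-of-ratios scaling they were Il3ra (-0.052) and Csf3r (-0.094) in cDC1s, Il3ra between WT subsets (0.19) and Flt3 in the difference of effects (-0.032), and with quantile normalization Il3ra in cDC1s (-0.068) and between WT subsets (0.14). Without 1 library the range was -0.33 to 0.11 for Kit in pDCs, -0.053 to 0.29 for Il3ra and -0.15 to 0.18 for Csf3r in cDC1s, -0.24 to 0.19 for Csf2ra and -0.025 to 0.22 for Csf2rb in cDC2s, -0.26 to 0.074 for Il3ra and -0.64 to 0.36 for Il7r in the difference of effects, and -0.12 to 0.31 for Csf2rb2 and -0.17 to 0.17 for Il3ra between WT subsets. The replicate block changed 1 call, that of Flt3 between WT subsets (0.55, adjusted p = 0.00396 from limma), though the cDC numbers were not shown to pair libraries. The cause of these changes was not tested. Low reads limit Csf3r (49 to 70) and Il7r (68 to 343) in cDC1s.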
